A study of Mus musculus with 20 samples.

Results

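The genes described here are known markers of leukocytes, read in the mouse corneal epithelium, the avascular outer layer of the eye surface. There are 44 of these genes among the 24552 genes of the deposited table. Whether all of their reads came from leukocytes was not tested. They were chosen by symbol in 4 lineages, namely 10 pan-leukocyte genes, 14 T and NK cell genes, 15 macrophage and myeloid genes and 5 genes of Langerhans cells and MHC class II. *Ptpn22* and *Fyb* were put on the list because they changed with age in these samples, so their values are given as a description with no test. The study's own lists of age-changed genes also hold *Cd74*, so the direction of *Cd74* is not independent evidence.

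RNA was sequenced from corneal epithelium scraped from naive female wild-type C57BL/6J mice at 4 ages, with 5 libraries per age. The mice were 2 to 3 months old in the young group, 12 to 13 months in the 12-month group, 18 to 19 months in the 18-month group and 24 to 25 months in the 24-month group. Each library pooled both corneas of 1 animal, and all groups were of 1 sex, strain and genotype, with no treatment. Libraries were made from the 3′ ends of polyadenylated RNA, and the reads on genes ran from 6699383 to 10762360 per library (median 8731333.5). All 10 genes of a corneal epithelium list were read above the minimum, and *Krt12*, the cornea-specific keratin, averaged 244400 normalized counts, while *Krt13*, a keratin of conjunctiva, averaged 28030.

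A healthy corneal epithelium holds few leukocytes. Langerhans cells and other dendritic cells lie among its basal cells, intraepithelial T cells are scattered through it, and most corneal macrophages sit in the stroma beneath. MHC class II molecules, which present peptides to helper T cells, are assembled from an α and a β chain on the invariant chain encoded by *Cd74*, and cathepsin S, encoded by *Ctss*, trims that chain so that peptide can bind. In bulk tissue, fewer cells of a type and less RNA per cell cannot be told apart.

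The class II chain genes carry in their promoters a Y box, an element bound by the factor NF-Y that is part of the shared control region of this family. The 250 bases before the start of *H2-Aa* (chr17:34287824-34288073, minus strand) and of *H2-Eb1* (chr17:34305617-34305866, plus strand) are shown because both genes are among the best covered members, with 2732 and 2576 reads. The letters are from RefSeq on GRCm38.p6, written 5′ to 3′, and the capitals mark the Y box CTGATTGG.
H2-Aa: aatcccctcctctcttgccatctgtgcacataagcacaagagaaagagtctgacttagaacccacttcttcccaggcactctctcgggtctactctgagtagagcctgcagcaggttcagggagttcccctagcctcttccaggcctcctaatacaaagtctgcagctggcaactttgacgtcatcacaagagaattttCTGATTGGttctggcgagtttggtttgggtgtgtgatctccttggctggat
H2-Eb1: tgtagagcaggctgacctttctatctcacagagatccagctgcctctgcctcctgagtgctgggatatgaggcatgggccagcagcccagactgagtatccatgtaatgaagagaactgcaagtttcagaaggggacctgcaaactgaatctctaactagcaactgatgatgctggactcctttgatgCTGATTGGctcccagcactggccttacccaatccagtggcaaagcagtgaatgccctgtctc
The box begins 51 bases before the start of *H2-Aa* and 62 bases before that of *H2-Eb1*. Searched on both strands, these 8 letters were present in 1198 of 27025 promoters of the table, or 4.433%. Promoters were listed for 30 of the 44 genes. Beside the pair printed above, only *Fyb* among those 30 held the Y box, and GAGGAAGT, an ETS core of the kind bound by the myeloid factor PU.1, was found in *C1qc* only, against 2.794% of all promoters. The search was a match of letters and no binding was measured.

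Most of these genes were read rarely. The 44 genes held 45844 reads over the 20 libraries, which made up 0.02137% to 0.03344% of the reads on genes in each. *Itgam* and *Ctss* accounted for 57.32% of them. In contrast, 16 genes had a median of 0 reads per library, 12 of which belonged to the T and NK cell lineage, and 19 genes had 100 reads or fewer in all. A gene with no read in a library may still be present at up to 3 reads there, that is 0.2787 to 0.4478 reads per 1000000, a limit that covers counting error only. Values below are either reads or normalized counts, which are reads divided by the size factor of the library (0.7603 to 1.3343).

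**Figure D1:**
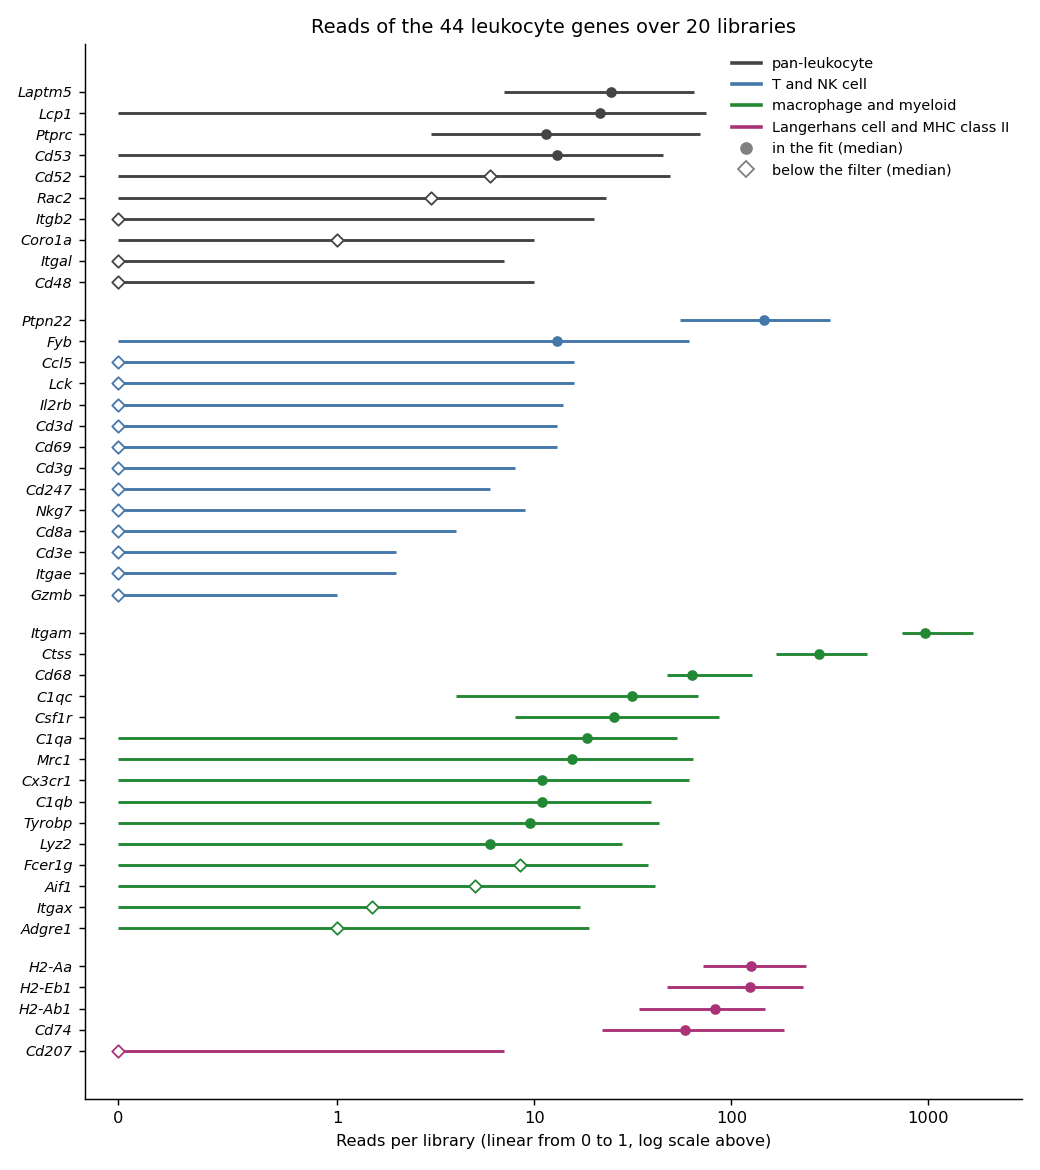
Reads per library of each of the 44 leukocyte genes, grouped by lineage, on a symmetric log axis. Each line runs from the lowest to the highest of the 20 libraries with the median as a filled circle (21 genes that entered the fit) or an open diamond (23 genes below the minimum). *Itgam* and *Ctss* lie far to the right, while 12 T and NK cell genes have their median at 0.

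Of the 44 genes, 21 reached a mean of 10 normalized counts over all libraries and entered the limma fit of 11288 genes, namely 4 pan-leukocyte, 2 T and NK cell, 11 macrophage and myeloid and 4 class II genes. Just inside this minimum were *Lyz2* at a mean of 10.26, *Tyrobp* at 12.03 and *C1qb* at 12.52, and just outside were *Cd52* at 9.473, *Fcer1g* at 9.208 and *Aif1* at 8.462. A gene was called where the adjusted p was at most 0.05 and the fold change at least 1.2 in either direction. Levels are also given per kilobase of transcript and per 1000000 reads. In libraries of 3′ ends reads need not grow with transcript length. Division by length can then place long transcripts too low, so these values do not rank the genes. The medians over the 20 libraries were 24.04 for *Itgam* (4682 bases), 23.44 for *Ctss* (1355 bases) and 14.37 for *H2-Aa* (1128 bases). They were 6.14 for *Ptpn22* (2743 bases) and 4.477 for *Cd74* (1410 bases). For *Ptprc* (5074 bases), the pan-leukocyte phosphatase CD45, the median was 0.2596. Which cells the reads of *Itgam*, *Ctss* and *Ptpn22* came from was not tested.

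Some of these genes share bases with a neighbour in the annotation, and whether reads were counted by strand is not given in the sources used here. *Itgam* (chr7:128062640-128118491) encodes CD11b, an integrin chain that reaches the cell surface paired with the β2 chain encoded by *Itgb2*. *Itgam* had 737 to 1679 reads in every library, while *Itgb2* had 0 to 20 and was at 0 in 11 of the 20 libraries. Exons of *Itgam* overlap those of *Gm49368* on the same strand, so its reads are not assigned with certainty. *Cd52*, *Coro1a*, *Cd247* and *Csf1r* have exons that overlap a gene on the opposite strand, and *Fyb* overlaps the pseudogene *Gm7666* on its own strand.

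The pan-leukocyte genes were lower on average at 12 months, with wide spread and with no gene called. Their 10 genes summed to 127.9 ± 29.9 normalized counts in young libraries (SD, n = 5). In the 12-month, 18-month and 24-month groups the sums were 67.1 ± 19.1, 114.9 ± 61.7 and 85.8 ± 27.3. The young libraries ran from 91.3 to 170.7 and the 18-month libraries from 46.4 to 198.2, so these groups overlapped throughout. *Ptprc* had 10, 23, 26, 23 and 46 reads in the young libraries, 34, 6, 7, 10 and 6 at 12 months, 3, 37, 69, 6 and 20 at 18 months and 22, 9, 13, 5 and 6 at 24 months. At 12 months 1 library stood within the young range and 4 stood at or below its lowest read count. The log2 fold change of *Ptprc* against young was -0.94, -0.41 and -1.22 in the 12-month, 18-month and 24-month groups, with an adjusted p of 0.722, 0.978 and 0.579.

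*Cd53*, a leukocyte tetraspanin, went the other way. It had 2, 13, 5, 13 and 0 reads in young libraries, 14, 8, 13, 17 and 8 at 12 months, 11, 22, 31, 17 and 39 at 18 months and 4, 1, 45, 14 and 7 at 24 months. The 18-month libraries were the highest as a group while at 24 months 1 library exceeded the young range and none fell short of it. Its log2 fold change at 18 months was 2.22 (95% interval 0.70 to 3.75) with an adjusted p of 0.364. The lysosomal *Laptm5* and the actin-bundling *Lcp1* were between -0.09 and -1.13 on the log2 scale at the 3 ages, and none of these values was called. *Rac2*, a GTPase of blood cells, and *Cd52*, a small surface glycoprotein, were below the minimum. *Rac2* had 7, 23, 2, 9 and 20 reads in young libraries and 0, 6, 2, 0 and 0 at 12 months, and *Cd52* had 7, 7, 9, 26 and 49 against 14, 0, 0, 0 and 1. Of the remaining pan-leukocyte genes, *Coro1a*, a coronin of the cell cortex, had 46 reads over all libraries. *Itgal*, the CD11a partner of the β2 chain, had 28 reads and *Cd48*, an adhesion receptor of the SLAM family, had 26, and *Itgb2* had 83 in all.

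Among the T and NK cell genes, *Ptpn22* and *Fyb* held 93.4% of the 4016 reads and went in opposite directions. *Ptpn22* (chr3:103856575-103912252), a tyrosine phosphatase that dampens antigen receptor signalling, had 66, 122, 78, 55 and 99 reads in the young libraries, 88, 80, 154, 147 and 102 at 12 months, 176, 123, 232, 253 and 316 at 18 months and 233, 258, 146, 292 and 315 at 24 months. As normalized counts this was 77.4 ± 14.99, 125.7 ± 33.4, 215.1 ± 59.8 and 225.1 ± 58.6 (SD, n = 5 each). All 18-month and 24-month libraries lay above every young library, as did 4 of 5 at 12 months. The fitted folds against young were 1.59, 2.71 and 2.84. With 1 library left out at a time, the log2 fold change ran from 0.56 to 0.82 at 12 months and from 1.395 to 1.67 at 24 months. *Ptpn22* was listed for its change in these same libraries, so these ranges are no support for it.

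*Fyb* (chr15:6522796-6665608), an adaptor protein of T cells and myeloid cells, had 38, 45, 36, 23 and 52 reads in the young libraries, 41, 6, 3, 8 and 0 at 12 months, 10, 27, 13, 13 and 61 at 18 months and 10, 7, 0, 6 and 17 at 24 months. All 24-month libraries lay below the young ones, while 1 of the 12-month and 2 of the 18-month libraries lay within or above the young range. Its means were 36.4 ± 9.5, 11.4 ± 15.1, 25.0 ± 20.96 and 7.33 ± 5.96 normalized counts (SD, n = 5 each), and the log2 fold changes were -2.45, -0.82 and -2.61. Because reads of *Fyb* were few, these folds moved with the pseudocount added before the log, from -3.22 to -1.32 at 12 months and from -3.36 to -1.47 at 24 months for a pseudocount of 0.1 and of 10.

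**Figure D2:**
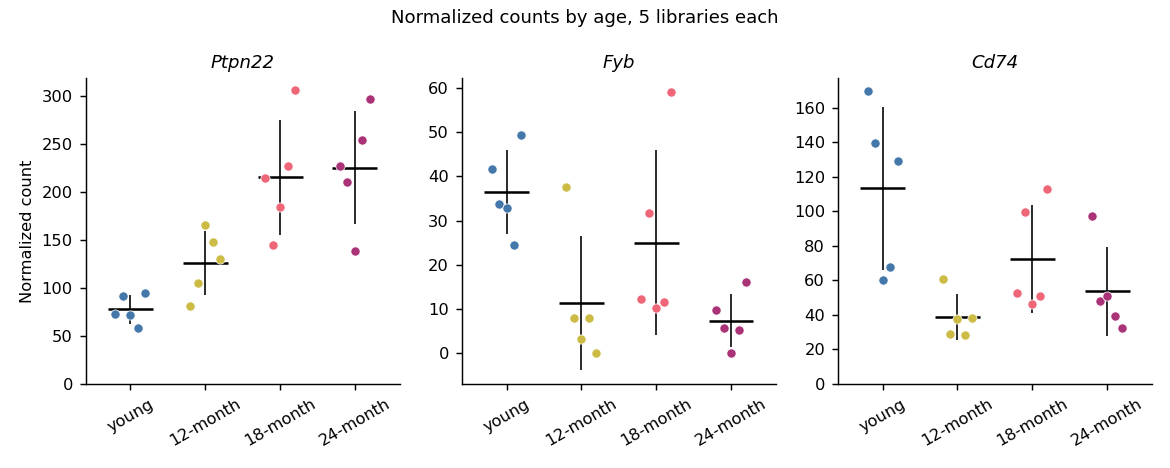
Normalized counts of *Ptpn22*, *Fyb* and *Cd74* by age. Points are libraries (5 per age), lines the mean and bars the SD. *Ptpn22* stands at a mean of 77.4 in young and 225.1 in 24-month libraries, *Fyb* at 36.4 and 7.33, and *Cd74* at 113.3 and 53.6.

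The other 12 T and NK cell genes were close to absent, with 265 reads in 20 libraries. The T cell receptor complex genes *Cd3e*, *Cd3d*, *Cd3g* and *Cd247* held 67 of them. *Cd3d* had its highest value, 13 reads, in a single 18-month library and *Cd3e* never exceeded 2 reads. *Itgae*, the integrin chain CD103 of intraepithelial T cells, had 3 reads in all, and *Gzmb*, a granule protease of cytotoxic cells, had 1. *Ccl5*, a chemokine of activated T and NK cells, had 68 reads in 8 libraries, the most of the 12, and in young libraries it had 8, 14, 1, 12 and 0. *Lck*, the kinase that starts receptor signalling, had 43 reads in 7 libraries, of which 16 came from a single 12-month library. *Il2rb*, a chain of the interleukin-2 receptor, had 29 reads, *Cd69*, an activation and residency marker, had 22, *Nkg7*, a granule protein, had 18, and the co-receptor *Cd8a* had 14. Together the 12 genes gave 19.9 ± 8.3 normalized counts in the young, 7.70 ± 11.4 in the 12-month, 17.6 ± 11.6 in the 18-month and 7.96 ± 4.55 in the 24-month group (SD, n = 5 each). At 12 months 3 of the 5 libraries held no read of any of the 12 genes, and 8 of the 12 were at 0 in all 5 libraries. The 12-month libraries were also the shallowest by their median, at 7859652 reads against 8792912 in young libraries. The 3 with no read of the 12 genes, replicates 1, 2 and 3, had 8746903, 6699383 and 7859652 reads on genes. Replicates 4 and 5 had 8463854 and 6835160 reads on genes, with 13 and 20 reads of the 12 genes. The part of depth in this was not tested. The receptor complex genes with *Cd8a* had 0 to 8 reads per young library, 0 to 3 at 12 months, 2 to 13 at 18 months and 1 to 12 at 24 months.

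**Figure D3:**
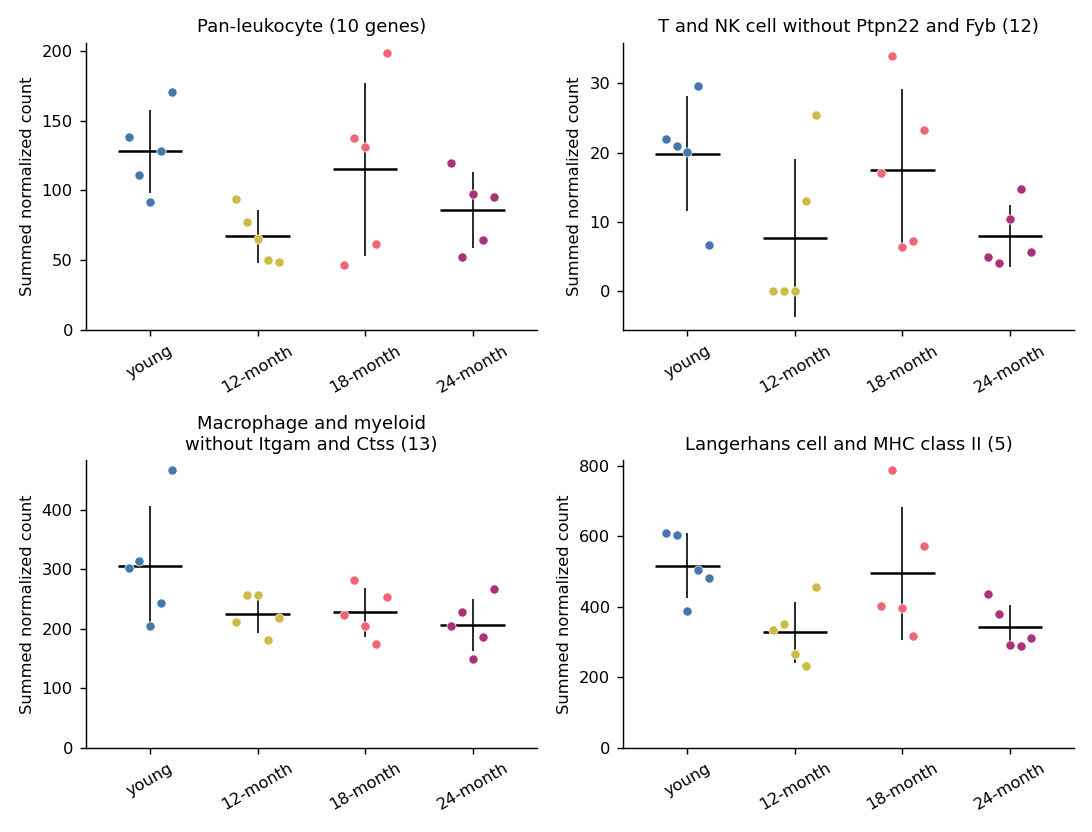
Summed normalized counts of 10 pan-leukocyte genes, 12 T and NK cell genes without *Ptpn22* and *Fyb*, 13 macrophage and myeloid genes without *Itgam* and *Ctss*, and 5 Langerhans cell and class II genes, by age. Points are libraries, lines the mean and bars the SD (n = 5). The pan-leukocyte, T and NK cell and class II sums are lowest at 12 months on average, while the myeloid sum is lowest at 24 months, at 206.5 against 305.9 in young libraries.

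The macrophage and myeloid genes were mostly lower on average with age, with no gene called at any age. *Itgam* had lower means than in young libraries at each age, with 1217 ± 283 normalized counts in the young, 1041 ± 248 in the 12-month, 928.8 ± 158 in the 18-month and 867.3 ± 254 in the 24-month group (SD, n = 5 each), but the groups overlapped. Its log2 fold change at 24 months was -0.50 (95% interval -0.86 to -0.15) with an unadjusted p of 0.00937 and an adjusted p of 0.271. *Ctss* was higher at 18 months, at 357.2 ± 98.1 against 230.3 ± 59.0 in young libraries, and was at 239.4 ± 23.8 at 24 months. Its log2 fold change at 18 months was 0.63 (95% interval 0.23 to 1.03) with an adjusted p of 0.279. *Cd68*, a lysosomal glycoprotein of macrophages, kept means of 60.4 to 73.1 normalized counts at all ages, and its 95% interval at 24 months, from -0.30 to 0.81 on the log2 scale, does not show that it was equal.

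*Mrc1*, the mannose receptor of tissue macrophages, had 35, 13, 43, 25 and 64 reads in young libraries, 7, 22, 5, 23 and 5 at 12 months, 3, 6, 26, 14 and 21 at 18 months and 12, 6, 17, 0 and 24 at 24 months. The young libraries held the 3 highest read counts and the ages overlapped. The log2 fold change at 24 months was -1.98 (95% interval -3.47 to -0.49) with an adjusted p of 0.340. *Csf1r*, the receptor of macrophage growth factors, was at 43.8 ± 30.04 normalized counts in young and 22.3 ± 11.5 in 24-month libraries (SD, n = 5 each). *Adgre1*, the macrophage marker F4/80, had 10, 9, 1, 0 and 0 reads in young libraries and none in any 24-month library, values at which the depth cannot show a difference. *Itgax*, the integrin chain CD11c of dendritic cells and some macrophages, had 73 reads in 11 libraries, of which 17 came from a single 24-month library.

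Receptors and signalling adaptors of myeloid cells were spread widely within an age. *Cx3cr1*, the receptor of fractalkine, had 25, 39, 0, 5 and 61 reads in the young libraries and 16, 12, 6, 3 and 10 at 24 months, and its log2 fold change there was -0.57. The young libraries covered the whole range of the 24-month ones. *Tyrobp*, the adaptor DAP12, had 16, 43, 8, 8 and 18 reads in young libraries and 0, 9, 16, 5 and 7 at 24 months, with a log2 fold change of -1.47 and an unadjusted p of 0.0516. *Fcer1g*, the γ chain of Fc receptors, was below the minimum with 190 reads in 18 libraries. *Lyz2*, the lysozyme of macrophages and neutrophils, had 0 to 28 reads per library and log2 fold changes of 0.17, -0.16 and -0.92 at the 3 ages, and the first 2 of these changed sign under other settings.

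The genes for the chains of C1q, the first component of complement and a product of macrophages, lie next to each other on chromosome 4 (chr4:136880126-136898844, minus strand) and together had 1294 reads. Their sum was 84.8 ± 30.3 normalized counts in the young, 41.0 ± 26.2 in the 12-month, 58.1 ± 19.3 in the 18-month and 63.3 ± 33.2 in the 24-month group (SD, n = 5 each). Each chain had its lowest mean at a different age. *C1qc* had 33, 60, 34, 25 and 50 reads in young libraries and 31, 7, 20, 5 and 4 at 12 months, with a log2 fold change of -1.64 (adjusted p = 0.232), and at 24 months its log2 fold change was 0.03. *C1qb* had 13, 39, 20, 12 and 29 reads in young libraries and 10, 0, 6, 3 and 4 at 18 months, where the normalized groups did not overlap, with a log2 fold change of -2.26 (adjusted p = 0.364). *C1qa* was lowest at 24 months, with 11, 22, 0, 2 and 23 reads and a log2 fold change of -1.90 (adjusted p = 0.438). None of the differences passed the threshold.

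Some markers of other cells were called lower with age. Among 8 genes of stromal keratocytes, the collagen-making cells beneath the epithelium, 7 were tested and 3, 3 and 4 were called lower at 12, 18 and 24 months. Of all 11288 genes, 0.532%, 0.673% and 0.78% were called at these ages, in either direction. Their sum ranged from 1756 to 4820 normalized counts in young libraries, from 698.5 to 1728 at 12 months, from 710.6 to 1474 at 18 months and from 376.5 to 1183 at 24 months. *Col1a1*, a fibrillar collagen, fell at all 3 ages, and at 24 months it fell by 3.74 on the log2 scale, and *Kera*, the keratocyte proteoglycan keratocan, was at 0 in 5 of the 20 libraries. Of 7 conjunctival genes, 5 were tested and 2, 2 and 1 were called, all lower, and their sum ran from 28950 to 50550 in young and from 25100 to 30230 in 24-month libraries. The goblet cell mucin *Muc5ac* was at 0 in 14 libraries. The part of these cells in the macrophage, class II and other values was not tested.

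The class II genes were lower on average at 12 and 24 months and near the young level at 18 months, apart from *Cd74*. *Cd74* had 155, 186, 66, 64 and 136 reads in young libraries, 66, 22, 35, 28 and 30 at 12 months, 43, 85, 58, 57 and 117 at 18 months and 100, 59, 54, 45 and 34 at 24 months. After scaling, 4 of 5 libraries at 12 months and 4 of 5 at 24 months lay below every young library, while the remaining one of each lay within the young range. The means were 113.3 ± 47.5, 38.7 ± 13.2, 72.5 ± 31.4 and 53.6 ± 25.7 normalized counts (SD, n = 5 each). The log2 fold change was -1.47 at 12 months (SE 0.36, adjusted p = 0.0562), -0.63 at 18 months (adjusted p = 0.786) and -1.06 at 24 months (adjusted p = 0.225), so *Cd74* was not called at any age. The 12-month value lay close to the threshold and was called without young replicate 3 (adjusted p = 0.0411), without 12-month replicate 1 (0.0333), without 24-month replicate 1 (0.0490) or with a pseudocount of 10 (0.0434), and over all the alternatives run its adjusted p ranged up to 0.182.

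The class II chains varied less. *H2-Aa*, the α chain of I-A (chr17:34282744-34287823), was at 146.3 ± 31.9 normalized counts in the young, 112.0 ± 30.9 in the 12-month, 165.4 ± 45.4 in the 18-month and 109.8 ± 20.4 in the 24-month group. *H2-Ab1*, its β chain (chr17:34263227-34269418), was at 101.1 ± 25.8, 72.5 ± 32.4, 105.9 ± 46.0 and 77.4 ± 15.2. *H2-Eb1*, the β chain of I-E (chr17:34305867-34316674), was at 156.7 ± 25.1, 103.8 ± 40.7, 150.9 ± 78.7 and 98.6 ± 20.7 (SD, n = 5 each). C57BL/6 mice make no I-E α chain, so this β chain is not displayed as I-E. All of these groups overlapped. The log2 fold change of *H2-Eb1* was -0.68 at 12 months (95% interval -1.27 to -0.08, adjusted p = 0.467) and -0.67 at 24 months (-1.27 to -0.07, adjusted p = 0.454), and at 18 months it was -0.19. *Cd207*, which encodes langerin and defines Langerhans cells, had no read in any young library and 4, 4, 5 and 7 reads in 4 of the aged libraries, so the class II values stand in libraries in which that marker was at or near 0.

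**Figure D4:**
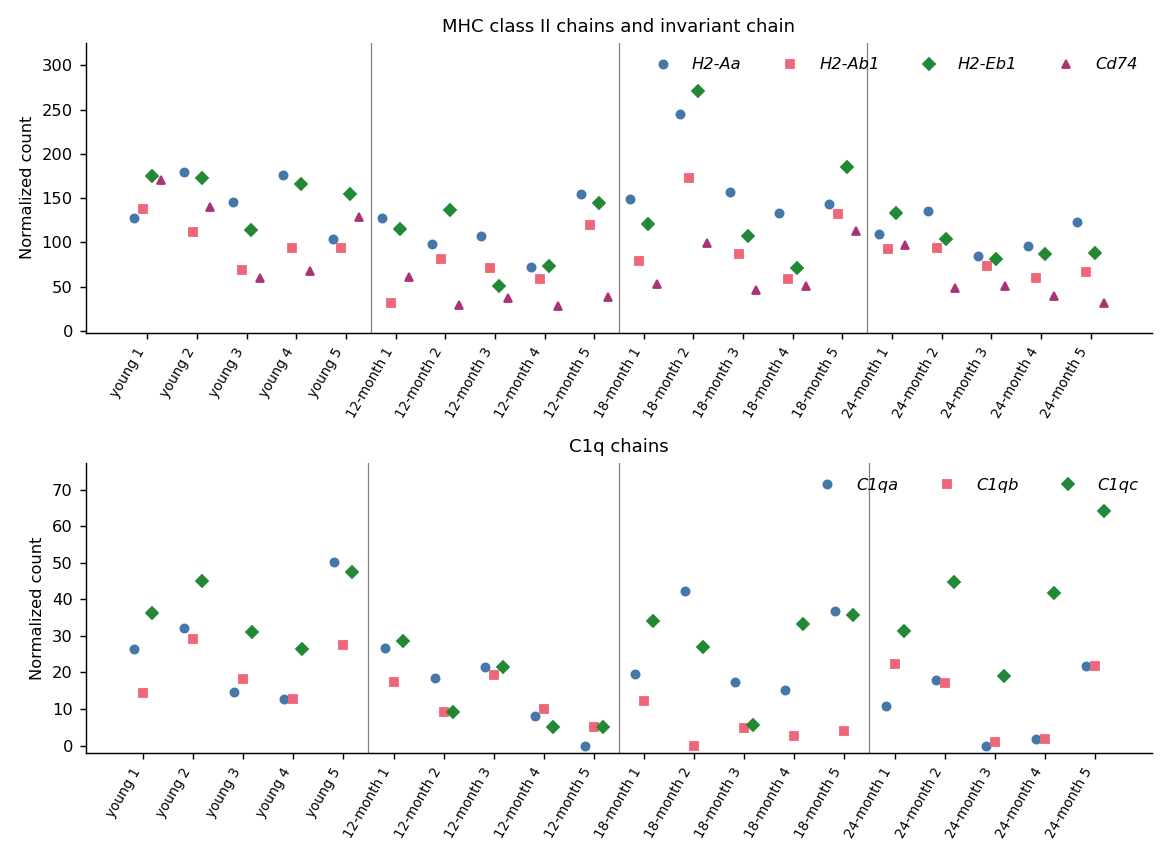
Normalized counts in each of the 20 libraries, in order of age, for the class II genes *H2-Aa*, *H2-Ab1*, *H2-Eb1* and *Cd74* (upper panel) and for the C1q chain genes *C1qa*, *C1qb* and *C1qc* (lower panel). In the 18-month group the H2 chains sum to between 262.5 and 688.5 normalized counts, a wider range than the 327.9 to 463.9 of the young group.

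Pairs of class II genes, and pairs of C1q genes, varied together to differing degrees between libraries of the same age. The relation was measured over the 20 libraries after subtracting each age mean, with 100000 permutations within ages. It was measured for 15 pairs of genes chosen after their values were seen. The adjustment over the 15 pairs does not cover that choice, so its p-values describe these pairs only. *H2-Ab1* and *H2-Eb1* gave r = 0.62 and rho = 0.68, with a permutation p adjusted over the 15 pairs of 0.0371 for rho, and r was 0.79 without the 2 farthest libraries. *Cd74* and *H2-Eb1* gave r = 0.55 and rho = 0.61 (adjusted permutation p of rho = 0.0371), and r was 0.48 without the 2 farthest. The other 4 class II pairs did not pass, with r = 0.38 for *Cd74* and *H2-Ab1* (adjusted permutation p = 0.242, and 0.0557 for rho), 0.52 for *H2-Aa* and *H2-Eb1* (0.133, and 0.101 for rho), 0.35 for *H2-Aa* and *H2-Ab1* (0.346, and 0.452 for rho) and 0.14 for *Cd74* and *H2-Aa* (0.673, and 0.920 for rho). *C1qa* gave rho = 0.61 with *C1qc* and 0.65 with *C1qb*, with an adjusted permutation p of 0.0371 and 0.0400, while *C1qb* and *C1qc* did not pass (rho = 0.51, adjusted permutation p = 0.0799). No Pearson correlation reached an adjusted permutation p of 0.05, the lowest being 0.0564 for *C1qa* with *C1qc*. *Ptpn22* and *Ptprc* gave r = -0.41, which is given as a description only because *Ptpn22* was listed for its change. Pairs with *Ptpn22* were among the 15 that the adjustment ran over.

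The share of all 11288 genes called was 0.532%, 0.673% and 0.78% at the 3 ages in order, 1.01% over all aged libraries, 0.195% for 24 against 12 months and 0.904% for any difference among the 4 ages. *Ptpn22* and *Fyb* were left out of the counts that follow, since they were chosen for their change. Of the other 19 genes in the fit none was called in any of these comparisons by limma with the settings used here. Other settings called *Cd74*, at 12 months as given above and over all aged libraries with limma-voom on the recovered reads (adjusted p = 0.0375). At an unadjusted p of at most 0.05 there were 4, 4 and 5 at the 3 ages, against 9.56%, 7.18% and 9.97% of all genes. Of these, 3, 2 and 5 were lower than young, against 4.96%, 3.84% and 5.04% of all genes. Groups that did not overlap with young occurred for none of the 19 at 12 months, for *C1qb* at 18 months and for none at 24 months, against 1.98%, 2.05% and 2.81% of all genes. The log2 fold change was below 0 for 14, 14 and 15 of the 19, against 51.7%, 50.2% and 49.3% of all genes. The medians of the 19 were -0.56, -0.41 and -0.57 on the log2 scale, beside -0.010, -0.0011 and 0.0052 over all genes. These numbers describe the genes that passed the minimum on reads, a minimum that a gene high in 1 age can pass through that age, and they are no test of the whole list.

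By lineage, the median log2 fold change of the 4 pan-leukocyte genes in the fit was -0.60, -0.49 and -0.23 at the 3 ages in order. That of the 11 macrophage and myeloid genes was -0.25, -0.45 and -0.78, and that of the 4 class II genes was -0.62, -0.10 and -0.54. The order of the ages thus differed between lineages, and that difference was not tested.

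The 23 genes below the minimum were compared one by one with young libraries by a two-sided exact permutation test on the log2 values, in which 5 against 5 allows a smallest p of 0.00794. Of the 68 tests with a read, 4 had an exact p under 0.05 and none an adjusted p below 0.675. No share over all genes was computed for this exact test, so the count of 4 is no result about these genes. Over 68 tests, a single test at a p of 0.00794 would not pass the adjustment. Genes read in only a few libraries could not reach that p, so the adjusted values do not show that any gene was unchanged. The 4 are given as values only. *Cd52* (exact p = 0.0317) and *Rac2* (exact p = 0.0397) were lower at 12 months, by differences of -2.88 and -2.34 in mean log2 value. *Rac2* (exact p = 0.0397) and *Aif1*, a calcium-binding protein of macrophages also known as Iba1 (exact p = 0.0317), were lower at 24 months, by -1.89 and -2.12.

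Further genes of the same cell types, on lists beside the 44, were mostly unread too. None of 22 further T and NK cell genes reached the minimum, with *Thy1*, a T cell surface glycoprotein, highest in mean normalized count at 8.147, and none of 7 B cell genes did. Of 20 further macrophage and myeloid genes 6 were tested and none was called, among them *Spi1*, which encodes PU.1, at a mean of 12.98. Of 10 further class II pathway genes 4 were tested and none was called. *H2-DMb1*, a chain of the peptide exchanger H2-M, was at 29.7 ± 5.0 normalized counts in the young, 63.7 ± 32.9 in the 12-month, 61.4 ± 13.7 in the 18-month and 35.4 ± 26.6 in the 24-month group (SD, n = 5 each). At 18 months its values were apart from those of young libraries, with a log2 fold change of 1.01 (adjusted p = 0.640), and at 12 and 24 months it was 0.92 (adjusted p = 0.541) and -0.10 (adjusted p = 0.972). *Ciita*, which encodes the master regulator of class II transcription, was at 0 in 15 of the 20 libraries. Of 10 dendritic cell genes 2 were tested, and *Irf8* was not called. *Fscn1*, an actin-bundling protein of mature dendritic cells and of other cells, fell by 3.42 on the log2 scale at 18 months (adjusted p = 0.00671). Its normalized counts went from 124.5 ± 55.1 in young to 13.1 ± 9.7 at 18 months. They were 26.9 ± 14.7 at 12 months and 32.9 ± 34.2 at 24 months, where *Fscn1* was not called. It was also called lower over all aged libraries. Of 10 neutrophil genes only *S100a8* and *S100a9* were tested, and of 8 mast cell genes only *Kit*, and none was called.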

How the data were processed

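Total RNA of scraped corneal epithelium was made into 3′-end libraries from 20 mice, 5 per age. Per the labels, reads were processed with FastQC, cutadapt, STAR, HTSeq and DESeq2, whose versions are not given in the sources used here. The authors deposited 4 tables of log2 values, log2 of the count divided by a size factor plus 1. Their 736560 shared values did not differ between tables. Columns with the authors' own comparisons (mean levels, folds and their p-values, raw and adjusted) were not used. Dividing out the size factor returned whole reads for 100% of values within 0.001 read.

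Samples were grouped by the age in their labels. Genes with a mean of at least 10 normalized counts (11288) were fitted over all 20 libraries by limma 3.58.1 in R 4.3.3 (trended variance, no covariate), each age against young, 24 against 12 months, all aged against young and any difference. P-values were Benjamini-Hochberg adjusted over all genes fitted, and the call rule was an adjusted p of at most 0.05 with a fold of at least 1.2. Fold changes are on the log2(value + 1) scale and understate changes of low genes. Genes below the minimum were tested by exact permutation in Python 3.11.15 with NumPy 2.4.6. The fit and the tests were also run on simulated data. Reads on genes ranged from 6699383 to 10762360 per library. Molecular identifiers were not named, so limits from counts cover counting error only. Positions are from RefSeq, and strands, transcript lengths and overlapping genes are from GENCODE M21, both on GRCm38.

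The 44 genes and the further lists were chosen with earlier results of these data known. All 44 were to be named with read counts, and genes of other lists only where called or among the 3 highest of their list. *Ciita*, *Kera* and *Muc5ac* were named after their values were seen. Of 135 genes on the 13 further lists, 127 were in the table and the other 8 were not analysed here. Lists for vessels, melanocytes and Schwann cells and nerves had 1, 2 and 1 genes tested and none called.

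Alternatives were quantile normalization, no minimum or a minimum of 50, a pseudocount of 0.1 or 10, a fold of 1.5, only the groups compared, a replicate block, limma-voom on the recovered reads and leaving out each library in turn.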

Additional observations from a re-analysis of the deposited data

Results flagged for a closer look

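In 100 groups of 5 libraries, 9 held a library whose gap to its nearest neighbour was more than 0.71 of the group's range. For independent, normally distributed values chance flags about 1 in 20 groups. The counts screened were not on a log scale and the sums contain screened genes, so that rate need not hold here. Only the genes in the fit and the lineage sums were screened. At 12 months replicate 1 stood above the others for *Ptprc*, at 31.25 normalized counts against at most 10.02, and for *Fyb*, at 37.69 against at most 8.017. At 18 months replicate 5 was highest for *Lcp1*, at 71.56 against at most 19.71, and for the sum of the T and NK cell genes, at 387.8 against at most 245.5. At 18 months replicate 2 was highest for *Cx3cr1*, at 56.3 against at most 7.94, and for *H2-Aa*, at 245.1 against at most 156.4. At 24 months replicate 3 was highest for *Cd53*, at 42.57 against at most 12.18. At 24 months replicate 4 was highest for *Lyz2*, at 24.37 against at most 6.826, and lowest for *Lcp1*, at 9.572 against at least 21.45.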

How the results depend on the processing

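Of 2279 values recomputed under an alternative, 2209 kept their direction and their side of the threshold, 53 changed direction, 6 gained a call and 11 moved by more than the spread. At 12 months the number of leukocyte genes called went from 0 to 1 with a replicate block (*Cd74*, adjusted p = 0.0459), and ran from 0 to 1 when each library was left out. The adjusted p of *Cd74* at 12 months reached 0.182 at the most and was 0.0434 with a pseudocount of 10. Over all aged libraries limma-voom also called *Cd74* (adjusted p = 0.0375). *Ptpn22* and *Fyb* were chosen for their change, so whether they were called is not given. The tests with an exact p under 0.05 below the minimum, 4 in all, ran from 1 (without young replicate 2) to 7 (without young replicate 3), with 2 without young replicate 4, 12-month replicate 4 or 12-month replicate 5.

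Direction changed for values near 0 and for some larger ones, and the cause was not tested. With the settings used here, *Cx3cr1* was 0.89 at 12 months and -0.54 at 18 months, and *Lcp1* was -0.77 at 18 months. With limma-voom *Lyz2* at 12 months was -0.0256 and *C1qa* at 18 months -0.0819. With a pseudocount of 0.1 *Lyz2* at 12 months was -0.38 and *Cx3cr1* over all aged libraries 0.48, and with 10 *C1qa* at 18 months was -0.0098 and *H2-Ab1* 0.0044. With quantile normalization *Lyz2* was 0.29 at 18 months and 0.19 over all aged libraries, *H2-Ab1* at 18 months 0.0053 and *Lcp1* at 24 months 0.0334. Leaving out each library gave, at 12 months, -0.53 to 0.10 for *Laptm5*, -0.36 to 0.95 for *Lyz2*, -0.56 to 0.0238 for *Tyrobp* and -0.0259 to 1.44 for *Cx3cr1*. At 18 months it gave -0.83 to 0.0646 for *Ptprc*, -1.41 to 0.13 for *Lcp1*, -0.00370 to 0.28 for *Cd68*, -0.56 to 0.28 for *Lyz2*, -0.22 to 0.26 for *C1qa*, -1.45 to 0.0177 for *Cx3cr1*, -0.20 to 0.19 for *H2-Ab1* and -0.44 to 0.0427 for *H2-Eb1*. At 24 months it gave -0.57 to 0.13 for *Lcp1*, -0.16 to 0.27 for *C1qc* and -0.0433 to 0.20 for *Ctss*, and over all aged libraries -0.71 to 0.13 for *Lyz2* and -0.99 to 0.48 for *Cx3cr1*.

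Over all genes, the 60 called at 12 months became 39 with only the groups compared and 38 with limma-voom. The 22 called for 24 against 12 months became 0 with no minimum (1915 at an unadjusted p under 0.05), 35 with a minimum of 50, 11 with only the groups compared and 11 with the block. Leaving out 1 library moved the counts over all genes from 38 (without young replicate 5) to 96 (without young replicate 1) at 12 months, from 61 to 81 at 18 months, from 54 (without 24-month replicate 3) to 96 at 24 months, from 84 to 130 over all aged libraries and from 59 (without young replicate 2) to 114 for any difference. For 24 against 12 months they ran from 0 (without 12-month replicate 5 or any of 24-month replicates 1, 2, 3 and 5) to 84 (without young replicate 1). The background shares move with these counts. Over all aged libraries limma called 54 higher and 60 lower, and limma-voom 48 and 114. Libraries with the same replicate number did not deviate together (30 pairs, correlation -0.30 to 0.16, 3 above 0.1), so the numbers do not pair the samples.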

Other observations

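The highest value of a gene fell most often in a few libraries. Of 26 genes compared, young replicate 5 held the highest normalized count of 6 and young replicate 1 that of 4, while 18-month replicates 2, 3 and 5 held that of 3 each. Of the 44 genes, 2 had no read in any young library, 9 in any 12-month library, 3 in any 18-month library and 6 in any 24-month library. A read in all 5 libraries of the age was seen for 23, 18, 22 and 17 genes in the same order.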
